A study of Mus musculus with 24 samples.

Results

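The genes that cut proteins into peptides for MHC class I molecules, carry these peptides into the endoplasmic reticulum and trim them there were followed through reprogramming with and without IFNγ. The set comprised 10 genes of the 37315 in the table of normalized counts. They were chosen by name as the core of the pathway and not by a threshold on measured values, and all 10 were found. They were Nlrc5, Tap1, Tap2, Tapbp, Psmb8, Psmb9, Psmb10, Psme1, Psme2 and Erap1.

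Class I molecules show peptides from inside a cell to CD8+ T cells. The proteasome cuts these peptides, the transporter made of TAP1 and TAP2 carries them into the endoplasmic reticulum, and tapasin (Tapbp) holds empty class I molecules beside the transporter. IFNγ induces many of these genes. In its presence the catalytic subunits encoded by Psmb8, Psmb9 and Psmb10 take the places of those encoded by Psmb5, Psmb6 and Psmb7, which forms the immunoproteasome. Psme1 and Psme2 encode the PA28 cap of the proteasome, Erap1 encodes the aminopeptidase that trims peptides to length, and Nlrc5 encodes a transcriptional activator of class I genes.

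The RNA-seq libraries, 2 for each of 12 populations, came from the PaX system, a female hybrid ESC line (129S1/SvImJ, CAST/EiJ) with a GFP reporter in Hprt on 1 X chromosome (X-GFP), a Nanog promoter-RFP reporter, a Tsix truncation and a doxycycline-inducible c-Myc, Klf4, Oct4 and Sox2 cassette with its transactivator in Sp3. The populations were ESCs, NPCs differentiated from them, and reprogramming cells at days 2, 5 and 7, the last sorted by their X-GFP signal as negative, medium or high. Reprogramming cells were grown in doxycycline on irradiated male embryonic fibroblasts, either as control or with 10 ng/ml of IFNγ until day 5, so that the cells of day 7 had been without it since then. Cells of day 2 were sorted as negative for the dye that stained the feeders, and cells of days 5 and 7 as positive for the surface marker SSEA1. All libraries thus trace back to a single ESC line. The labels do not say that replicates were separate cultures, and the methods call them independent without naming what was repeated, so that p-values may measure only the spread between these libraries.

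Between 24746109 and 37056508 reads per library were counted on genes. The end points carried their markers. The 5 ESC markers summed to 130234 and 137799 normalized counts in the ESC libraries and to at most 88.5 in NPCs, and the 5 NPC markers to 39389 and 40945 in NPCs and to at most 628 in ESCs. The 4 Y-linked genes, which the male feeders carry and the female line lacks, summed to 218 and 253 in the day 2 control libraries and to 125 and 223 in the IFNγ-treated libraries of that day, but to at most 12.5 in any library of day 5 or day 7. Ptprc, the defining marker of blood cells, was at most 16.0 in any library. Of 8 haematopoietic markers, however, 4 had a mean above 10 in each arm of day 2. Among them Lyz2 was at 61.5 to 74.3 in control and 46.7 to 113 in treated libraries, against at most 0.972 in NPCs. Adgre1 was at 7.94 to 21.4 and 22.4 to 38.6, against at most 0.878 in NPCs. None of the 8 was called between the arms of day 2, and the part of such cells in the day 2 levels was not tested. In bulk RNA, fewer cells of a type and less RNA per cell cannot be told apart.

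Of the 10 genes, 4 form a block in the class II region of the MHC on mouse chromosome 17 (GRCm38). In the GENCODE annotation, Psmb9 (ENSMUSG00000096727) lies at chr17:34181987-34187764 on the minus strand, Tap1 (ENSMUSG00000037321) at chr17:34187553-34197225, Psmb8 (ENSMUSG00000024338) at chr17:34197721-34201454 and Tap2 (ENSMUSG00000024339) at chr17:34203527-34216321, the last 3 on the plus strand. Tapbp (ENSMUSG00000024308) lies on the same chromosome at chr17:33915899-33929292 on the plus strand. The others are at chr8:94434356-94527272 (Nlrc5, ENSMUSG00000074151, plus), chr8:105935735-105938444 (Psmb10, ENSMUSG00000031897, minus), chr14:55578123-55581529 (Psme1, ENSMUSG00000022216, plus), chr14:55587441-55591113 (Psme2, ENSMUSG00000079197, minus) and chr13:74639568-74693201 (Erap1, ENSMUSG00000021583, plus).

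Tap1 and Psmb9 start back to back. Their RefSeq start sites are 226 bases apart and point away from each other. In the GENCODE annotation, however, Psmb9 reaches past the bases between these starts, and the genes share 212 exon bases. The bases between the starts, at chr17:34187331-34187555 of GRCm38.p6, are shown on the plus strand because this single stretch lies upstream of both RefSeq starts:
Psmb9 to Tap1: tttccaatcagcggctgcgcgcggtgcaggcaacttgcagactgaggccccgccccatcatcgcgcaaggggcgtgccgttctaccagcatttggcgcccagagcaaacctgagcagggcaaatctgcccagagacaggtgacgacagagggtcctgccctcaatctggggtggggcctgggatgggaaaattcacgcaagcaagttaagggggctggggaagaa

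RefSeq promoter windows of 250 bases before to 50 after the start were given for 8 of the 10 genes (9 windows in all). They were searched on both strands for TTCNNNGAA, the γ-activated site (GAS), and for the core of the interferon-stimulated response element to which IRF factors bind (ISRE), spelled as GAAA, any 2 bases and GAAA again. The spellings differ in length and neither contains the other. GAS was found in 8.30% of the 32851 windows of all genes and ISRE in 3.44%. Among the 10 genes, GAS was in the window of Psmb8, 97 bases upstream of the start, and ISRE in those of Erap1, 4 bases upstream, and Psme1, 9 bases downstream. The windows of Tap1, Psmb9, Tapbp, Psmb10 and Psme2 held neither spelling, which says only that these letters are not in these windows. The 250 bases upstream of Psmb8, at chr17:34197945-34198194 on the plus strand, are shown with the GAS in capitals because it is the single GAS among the 9 windows:
Psmb8 upstream: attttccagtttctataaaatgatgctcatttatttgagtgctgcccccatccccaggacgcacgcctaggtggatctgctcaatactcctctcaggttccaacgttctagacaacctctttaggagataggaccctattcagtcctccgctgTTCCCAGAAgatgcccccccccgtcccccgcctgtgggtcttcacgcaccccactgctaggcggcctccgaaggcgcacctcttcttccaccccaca

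To see how strongly the pathway responded early, IFNγ-treated and control cells were compared at day 2. All 10 genes rose (limma, adjusted p under 0.1), whereas 5.03% of the 15697 genes tested rose and 3.45% fell. The median of the 10 log2 fold changes was 3.11, against 0.01 for all genes tested. No treated library overlapped the control libraries for any of the 10, which held for 51.2% of all genes tested.

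Psmb9, an immunoproteasome subunit, had the largest fold change of the 10. Its normalized counts were 40.7 and 42.7 in control libraries and 3409 and 3655 in IFNγ-treated libraries, a log2 fold change of 6.37 ± 0.10 (SE, limma adjusted p = 3.81e-07). Nlrc5, the class I activator itself, followed with 162 and 143 against 9886 and 10792 (log2 fold change 6.08 ± 0.09). In both genes the treated libraries lay more than an order of magnitude above the controls and close to each other. Psmb8, another immunoproteasome subunit, went from 172 and 167 to 7270.1 and 7599 (5.45 ± 0.07). Tap1 went from 646 and 561 to 10458 and 10731 (4.14 ± 0.08), and its partner in the transporter, Tap2, from 131 and 130.0 to 1503 and 1545 (3.53 ± 0.09). Both genes were separated cleanly by treatment, and Tap2 was the lower of the pair on either side of it. Per kb of exon the day 2 IFNγ-treated means were 1935 for Tap1 and 403 for Tap2.

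The other 5 genes were abundant without IFNγ and rose by less. Psmb10 went from 905 and 778 to 5321 and 5558 (log2 fold change 2.69 ± 0.08). The PA28 genes had near equal values, with Psme1 going from 1319.8 and 1118 to 5454 and 5441 (2.16 ± 0.08) and Psme2 from 878 and 805 to 3767 and 3778 (2.16 ± 0.07). Again no libraries overlapped between the arms. Tapbp went from 1719 and 1529 to 6045 and 5352 (1.81 ± 0.08). Erap1 had the smallest change of the 10, from 1727 and 1765 to 5830.5 and 5603 (1.71 ± 0.05), on top of a high level in control cells.

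The levels of the 10 genes drew together under IFNγ. Per kb of exon, the day 2 control means ran from 11.4 for Psmb9 to 552 for Psme1, a 48.4-fold range. In IFNγ-treated cells they ran from 403 for Tap2 to 3190.3 for Psmb10, a 7.92-fold range. At day 5 the range was 208-fold in control cells and 11.2-fold in treated cells. These values depend on the exon length given to each gene.

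**Figure D1:**
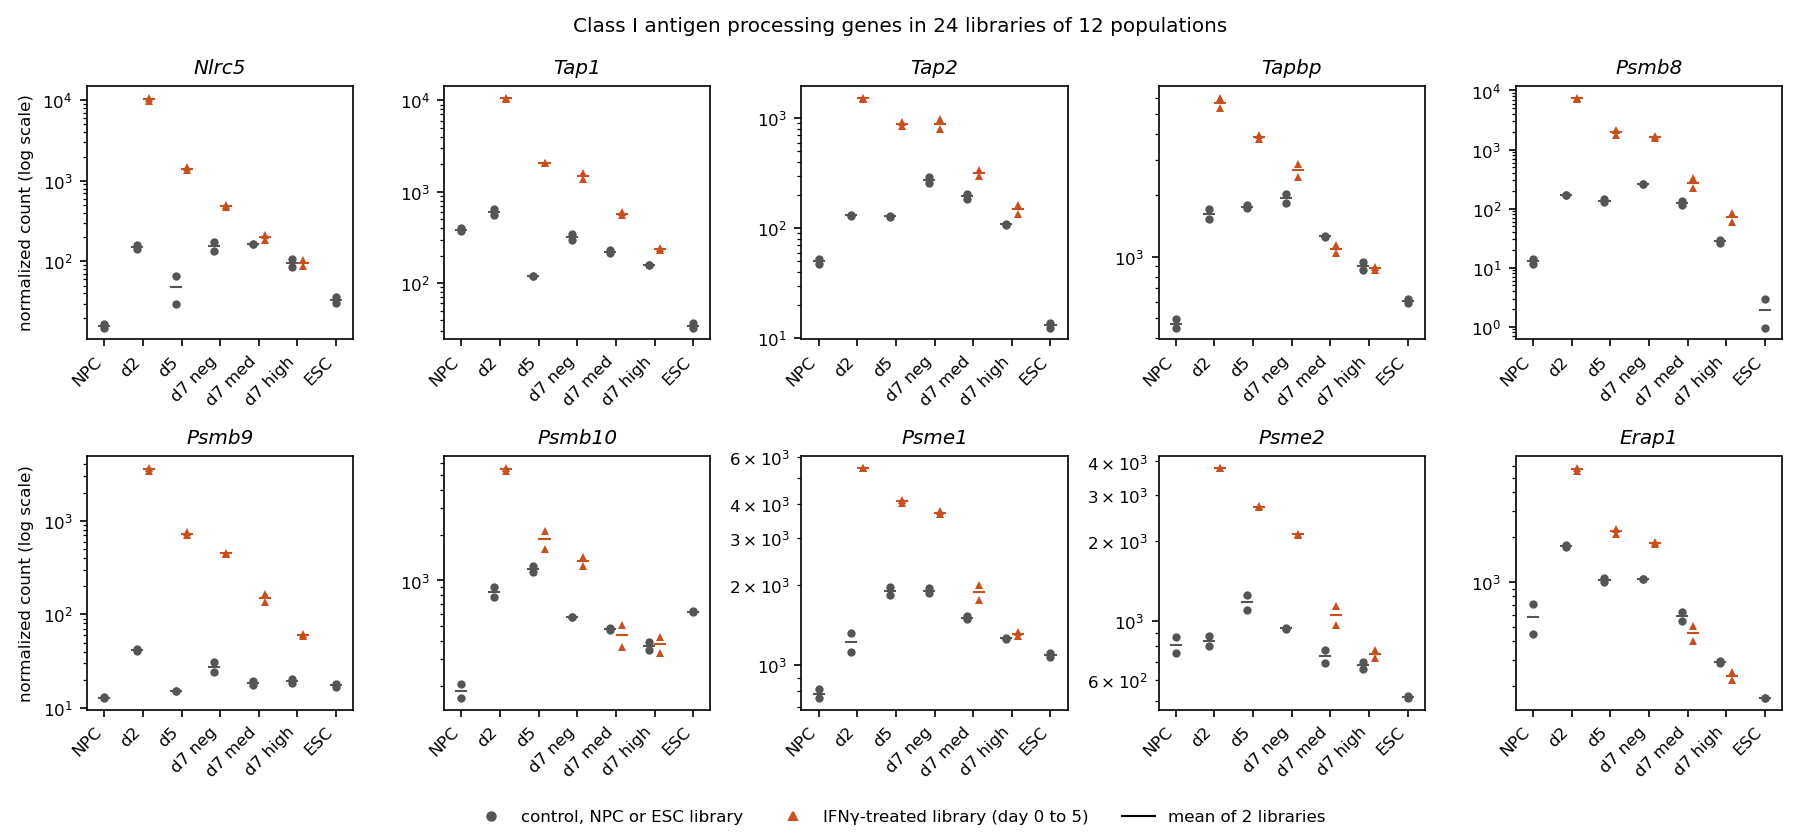
Normalized count of each of the 10 genes (log scale) in the 24 libraries, by population on the x axis, with grey circles for control, NPC and ESC libraries, orange triangles for IFNγ-treated libraries and a line for the mean of 2 libraries. In each panel the day 2 IFNγ-treated libraries are the highest, and the treated libraries are closer to the control libraries in X-GFP–high cells than at day 2. The gap does not narrow at every step, as that of Psmb10 is wider in X-GFP–negative cells (log2 fold change 1.22) than at day 5 (0.64).

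Of 10 fibroblast markers, 4 were lower in the treated arm at day 2 in limma, against 3.45% of all genes tested. DESeq2 called 5 as lower and edgeR 4, and 7 were lower in limma at an unadjusted p under 0.05. None was higher in any of these. Their sum, with all 10 at a mean above 10, was 41476 and 61505 in control and 25290.4 and 30825 in treated libraries, and the Y-linked sums are given above. NPCs had 30276 and 43241, so the list is not specific to feeders here. The part of feeder RNA in the day 2 levels was not tested.

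At day 5, the last day of treatment, 9 of the 10 genes rose and none fell, against 1.65% and 0.535% of the 15133 genes tested, with a median log2 fold change of 1.99 (0.00 for all genes). Psmb9 went from 15.1 in both control libraries to 756 and 696 (log2 fold change 5.49 ± 0.19, limma adjusted p = 4.35e-05). Nlrc5 went from 66.5 and 29.3 to 1466 and 1351 (4.96 ± 0.34), and its control libraries differed from each other more than those of the other 9 genes. Tap1 went from 121 in both control libraries to 2039 and 2083 (4.08 ± 0.11), Psmb8 from 144 and 128 to 2122 and 1776 (3.83 ± 0.14) and Tap2 from 126 and 129.7 to 848 and 932 (2.79 ± 0.13). Psme2, Tapbp, Psme1 and Erap1 had values between 1.09 and 1.20. Psmb10 missed the threshold. Its control libraries were at 1138 and 1252 and its treated libraries at 2124 and 1622, and its log2 fold change of 0.64 ± 0.14 had an adjusted p of 0.103 in limma. It passed with DESeq2 (adjusted p = 0.00118) and without treated replicate 1 (0.44, adjusted p = 0.0714) or treated replicate 2 (0.83, 0.0309).

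The change of the IFNγ effect from day 2 to day 5 was tested as an interaction in the 8 libraries of both days. All 10 differences were below 0, and 6 passed as a smaller effect at day 5, whereas 0.474% of all genes tested passed as smaller and 0.202% as larger. The largest called difference was that of Psmb10, with a log2 difference of -2.06 ± 0.18 (limma adjusted p = 0.00173), followed by Psmb8 with -1.62 ± 0.15, Psme1 with -1.06 ± 0.12 and Psme2 with -0.96 ± 0.11. Psmb10 had both a lower treated level and a higher control level at day 5 than at day 2. Tapbp (-0.68 ± 0.12) and Erap1 (-0.62 ± 0.10) also passed, but Tapbp lost its call without any 1 of 5 libraries and Erap1 without any 1 of 6, the highest adjusted p being 0.220 and 0.217 without treated replicate 1 of day 2. For Tap1 the difference was -0.06 ± 0.12, with lower levels at day 5 in both arms. Nlrc5 (-1.12 ± 0.42) passed without control replicate 2 of day 5 (-1.69, limma adjusted p = 0.00602).

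Within the treated arm, Nlrc5 lost most. Its day 5 mean was 13.6% of its day 2 mean, compared with 19.5% for Tap1, 20.6% for Psmb9 and 26.2% for Psmb8. The PA28 genes and tapasin kept more, with 75.1% for Psme1, 71.6% for Psme2 and 67.8% for Tapbp. These percentages share the day 2 libraries of each gene and carry no test.

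**Figure D2:**
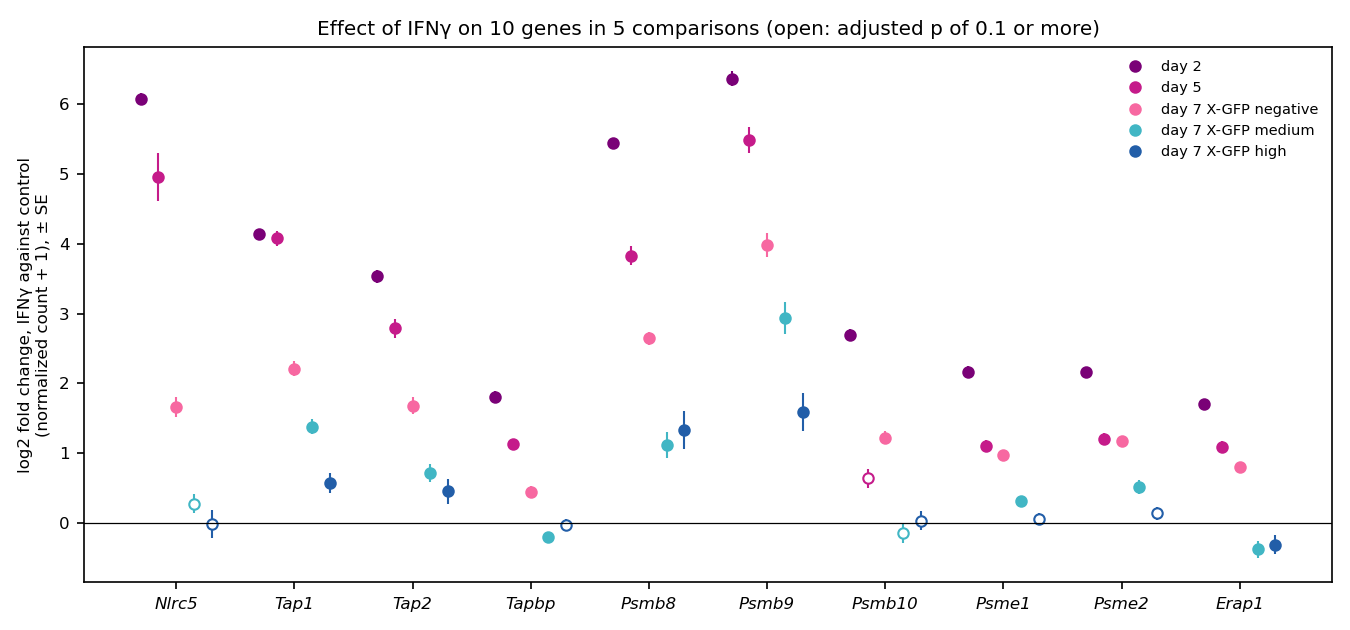
Log2 fold change of IFNγ-treated against control cells for each of the 10 genes (x axis) in the 5 comparisons, as the estimate of limma ± SE, with open circles for an adjusted p of 0.1 or more. Psmb9, Nlrc5 and Psmb8 have the largest values at day 2, and in X-GFP–high cells the filled circles above 0 are those of Tap1, Tap2, Psmb8 and Psmb9.

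At day 7, after IFNγ had been withdrawn, the response was graded by X-GFP. In X-GFP–negative cells all 10 genes were still higher than in control cells, while 31.1% of all genes tested were higher and 30.8% lower. The median log2 fold change was 1.44 (0.02 for all genes). Rescaling every library to the same total moved the median of all genes to 0.17, and all 10 genes remained higher. Psmb9 was at 24.1 and 31.1 in control and 453 and 442 in treated libraries (log2 fold change 3.98 ± 0.18, limma adjusted p = 1.04e-06). Psmb8 was at 260.0 and 262 against 1717 and 1556 (2.64 ± 0.09), and Tap1 at 345 and 295 against 1584 and 1378 (2.21 ± 0.11). These were the 3 largest values. Tap2 (1.68 ± 0.12), Nlrc5 (1.66 ± 0.14), Psmb10 (1.22 ± 0.09), Psme2 (1.18 ± 0.07), Psme1 (0.97 ± 0.06) and Erap1 (0.80 ± 0.07) followed. Tapbp, at 2044 and 1847 against 2854 and 2457, had the smallest value (0.45 ± 0.09).

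The effect in X-GFP–negative cells was smaller than at day 5 for 7 genes and larger for 1, against 22.5% and 17.8% of all genes tested. Rescaling moved the median of all genes in this interaction from -0.01 to 0.13. Nlrc5 had the largest difference of the effects (-3.30 ± 0.43, limma adjusted p = 0.00116), and Tap1 followed with -1.87 ± 0.16. Psmb10 was the gene with a larger effect, by 0.58 ± 0.18 (limma adjusted p = 0.0361), and its control mean was 1195 at day 5 and 573 in X-GFP–negative cells. This call was lost without control replicate 2 of day 5 (0.51, limma adjusted p = 0.105), without negative control replicate 1 (0.59, 0.102) or without negative treated replicate 2 (0.48, 0.134). Erap1 (-0.29 ± 0.11, limma adjusted p = 0.0703) lost its call with DESeq2 (0.198), after rescaling (0.366) and without any 1 of 6 libraries. Psme1 and Psme2 had differences of -0.14 ± 0.09 and -0.02 ± 0.11, which did not pass.

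Compared directly, treated X-GFP–negative cells were lower than treated day 5 cells for 7 of the 10 genes and higher for none, against 24.2% and 23.1% of all genes tested. The largest fall was that of Nlrc5, from 1466 and 1351 to 476 and 503 (log2 fold change -1.52 ± 0.09, limma adjusted p = 0.000247). Tap2 was at 848 and 932 and then at 975 and 799, overlapping levels with a log2 fold change of -0.01 ± 0.12. Psmb8 (-0.25 ± 0.11, limma adjusted p = 0.108) and Psme1 (-0.14 ± 0.07, 0.137) also missed the threshold. Psmb8 passed it without treated replicate 2 of day 5 (limma adjusted p = 0.0169). Erap1 (-0.27 ± 0.08, limma adjusted p = 0.0359) lost its call without any 1 of 3 libraries, the highest adjusted p being 0.209 without negative treated replicate 1, which also ended the call of Psmb10 (0.188).

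In X-GFP–medium cells 6 genes were higher and 2 lower, against 33.3% and 29.6% of all genes tested. Psmb9 had the largest change, from 17.8 and 19.6 to 137 and 165 (log2 fold change 2.94 ± 0.23, limma adjusted p = 4.64e-06). Tap1 (1.38 ± 0.11), Psmb8 (1.12 ± 0.18), Tap2 (0.72 ± 0.13), Psme2 (0.52 ± 0.10) and Psme1 (0.31 ± 0.08) were also higher. Erap1 was lower in treated cells, at 403 and 504 against 549 and 629 (-0.38 ± 0.12, limma adjusted p = 0.0232), and so was Tapbp, at 1047 and 1150.1 against 1252 and 1272 (-0.20 ± 0.08, 0.0440). The call of Erap1 was lost without medium control replicate 2 (-0.29, limma adjusted p = 0.182). That of Tapbp was lost without either control library or without treated replicate 1, the highest adjusted p being 0.207 without control replicate 2. Nlrc5 (0.28 ± 0.14) and Psmb10 (-0.15 ± 0.14) did not pass, although Nlrc5 passed without treated replicate 1 (0.38, limma adjusted p = 0.0303) and Psmb10 passed as lower without treated replicate 2 (-0.39, 0.00124).

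For all 10 genes the effect in medium cells was smaller than in negative cells (interaction, limma, adjusted p from 0.00184 to 0.0389), whereas 8.36% of all genes tested passed as smaller and 7.31% as larger. Rescaling moved the median of all genes in this interaction from 0.00 to -0.16. Psmb8 had the largest difference (-1.52 ± 0.22) and Tapbp the smallest (-0.65 ± 0.12). The value of Psmb9 (-1.04 ± 0.27) had an adjusted p of 0.135 with DESeq2, and of 0.105 to 0.131 without any 1 of 5 of the 8 libraries.

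Among X-GFP–high cells 4 genes were higher and 1 lower in the treated arm, against 18.1% and 20.4% of all genes tested. The 4 were the genes of the chromosome 17 block. Of the 6 genes outside it none was higher in limma, DESeq2 or edgeR, nor at an unadjusted p under 0.05. Psmb9 was at 18.6 and 20.3 in control and 59.4 and 61.3 in treated libraries (log2 fold change 1.59 ± 0.27, limma adjusted p = 0.00108). Psmb8 was at 25.8 and 29.9 against 59.4 and 85.5 (1.33 ± 0.27, limma adjusted p = 0.00346), and Tap1 at 158 and 159 against 239.9 and 232 (0.57 ± 0.14, 0.0107). In all 3 genes both treated libraries were above both control libraries. The arms did not overlap for 7 of the 10 genes, however, among them Psme1 and Psme2, which did not pass. The share of all genes without overlap was not computed at this stage, so the separation adds nothing to these calls.

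The other calls at this stage did not hold in every setting. Tap2 was at 109 and 108 in control and 163 and 135 in treated libraries (log2 fold change 0.45 ± 0.18, limma adjusted p = 0.0748). Erap1 was at 295 and 286 against 220.5 and 247 (-0.31 ± 0.13, limma adjusted p = 0.0946). Both calls were lost with DESeq2 (0.256 for Tap2 and 0.247 for Erap1), when genes of low mean were kept in the fit (0.138 and 0.140) and without either control library or treated replicate 1, the highest adjusted p being 0.264 for Tap2 without treated replicate 1 and 0.374 for Erap1 without control replicate 1. The other 5 genes had log2 fold changes between -0.04 and 0.14. Nlrc5 was at 107 and 85.4 in control and 86.8 and 103 in treated libraries, which overlap.

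From medium to high X-GFP the effect fell further for Psmb9 (-1.35 ± 0.32, limma adjusted p = 0.0315) and Tap1 (-0.81 ± 0.16, 0.0170), 2 of 10 genes, whereas 8.06% of all genes tested passed as smaller and 4.71% as larger. The call of Psmb9 was lost without medium control replicate 1 or high control replicate 2 (limma adjusted p = 0.121 in both cases). Psme1 and Psme2 passed as smaller without medium treated replicate 1 (limma adjusted p = 0.0894 and 0.0730). Within the treated arm, all 10 genes were lower when X-GFP was high than when it was negative, whereas 34.6% of all genes tested were lower and 34.1% higher. The log2 fold changes ran from -1.50 ± 0.07 for Psme1 to -4.50 ± 0.17 for Psmb8. In the control arm the mean of each of the 10 genes was also lower with high than with negative X-GFP, a comparison that was not tested. These control means went from 261 to 27.8 for Psmb8, from 1043 to 290 for Erap1 and from 27.6 to 19.4 for Psmb9.

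Other markers moved with X-GFP and with treatment at day 7. The ESC markers summed to 35853 and 39063 in control and 39096 and 39906 in treated X-GFP–negative cells. The sums were 56645 and 57902 against 74328 and 75535 in X-GFP–medium cells, and 92479 and 96008 against 106634 and 108871 in X-GFP–high cells. Of these 5 markers, 4 were called higher and 1 lower in negative and in medium cells, and 3 higher in high cells. Among all genes tested, 31.1% were higher and 30.8% lower in negative cells. These shares were 33.3% and 29.6% in medium cells and 18.1% and 20.4% in high cells. The lower marker was Pou5f1. It was at 22417 to 23807 in control and 16780 to 17801 in treated X-GFP–negative cells. With medium X-GFP it was at 22692 to 22808 against 15847 to 17639. The sum of the 10 fibroblast markers, 6 or 7 of them with a mean above 10, was in control cells mostly Dcn, which encodes decorin. Dcn was at 3801 to 4299.7 in control and 219 to 287 in treated X-GFP–negative cells, at 4472 to 5019.6 against 166 to 242 with medium X-GFP and at 1668 to 2176 against 41.1 to 119 with high X-GFP. The others did not follow it as a list. Called as higher in treated cells were Pdgfrb in X-GFP–negative cells, Pdgfrb and Col3a1 with medium X-GFP and Thy1 with high X-GFP, while Col1a1, Col1a2 and Thy1 were lower with medium X-GFP. Of the 8 haematopoietic markers, 1 or 2 had a mean above 10, and Cd68, a lysosomal protein of macrophages that other cells also make, was the only one called. It was at 2348 to 2739.6 against 1031 to 1144 in X-GFP–negative, at 1809 to 2069.5 against 981 to 1202 in X-GFP–medium and at 1096 to 1244 against 513 to 683 in X-GFP–high cells, lower in treated cells each time. The part of these shifts in the results of day 7 was not tested.

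Treated X-GFP–high cells were compared with ESCs, the pluripotent end point. Of the 10 genes 9 were higher and 1 lower than in ESCs, against 33.2% and 33.9% of all genes tested. Tap2 was at 163 and 135 against 13.8 and 12.4 in ESCs (log2 fold change 3.41 ± 0.25, limma adjusted p = 5.65e-07), and Tap1 at 239.9 and 232 against 36.4 and 32.4 (2.75 ± 0.19). Psmb8 had 3 and 1 reads in the ESC libraries, at the floor of 3 reads per library used here, so no fold is given for its 59.4 and 85.5. It is 1 of the 9, but its ESC mean of 1.95 was below the filter of 10. Psmb8 thus entered the test only through its treated libraries, and its call cannot be set against the 33.2%. Psme1 had the smallest increase (0.26 ± 0.08, limma adjusted p = 0.0114), which was lost without ESC replicate 1 (0.24, 0.103). Psmb10 was the lower gene, at 331 and 423 against 614 and 631 (-0.73 ± 0.12, limma adjusted p = 0.000301).

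ESCs were also compared with NPCs, the starting cells of reprogramming. Of the 9 genes tested, 4 were higher and 4 lower in ESCs, shares near the 42.2% and 43.4% of all genes tested, and Psmb8 was below the filter on low values. The transporter genes and the peptidase were lower in ESCs, with Tap1 at 36.4 and 32.4 against 372 and 397 (log2 fold change -3.45 ± 0.18, limma adjusted p = 1.54e-05), Tap2 at 13.8 and 12.4 against 52.5 and 47.4 (-1.86 ± 0.26) and Erap1 at 165 in both ESC libraries against 449 and 712 (-1.77 ± 0.23). Psme2 was lower too (-0.65 ± 0.10). Psmb10 was higher in ESCs, at 614 and 631 against 165 and 206 (1.75 ± 0.15), as were Nlrc5 (1.04 ± 0.27), Psme1 (0.48 ± 0.08) and Tapbp (0.37 ± 0.10). The call of Nlrc5 was lost with DESeq2 (adjusted p = 0.125) and that of Tapbp without ESC replicate 1 (limma adjusted p = 0.124). Psmb9, at 16.7 and 18.1 against 12.6 and 13.2, did not pass (0.40 ± 0.27).

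Without IFNγ, 9 of the 10 genes were higher at day 2 than in NPCs and none was lower, against 31.6% and 37.6% of all genes tested. Psmb8 went from 11.7 and 14.1 to 172 and 167 (log2 fold change 3.63 ± 0.25, limma adjusted p = 0.000133), Nlrc5 from 16.5 and 14.9 to 162 and 143 (3.20 ± 0.24) and Psmb10 from 165 and 206 to 905 and 778 (2.18 ± 0.16). Psme2, at 754 and 868 against 878 and 805, overlapped between the groups (0.06 ± 0.11). The Y-linked sum was at most 1.94 in NPCs and at least 218 in these day 2 libraries, and its part in the changes was not tested.

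From day 2 to day 5 of the control arm 4 of the 10 genes fell and 3 rose, shares near the 35.6% and 34.9% of all genes tested. Rescaling moved the median of all genes here from 0.00 to -0.12. Tap1 fell from 646 and 561 to 121 in both libraries (log2 fold change -2.30 ± 0.14, limma adjusted p = 1.71e-05), Nlrc5 fell by 1.76 ± 0.37, Psmb9 fell by 1.40 ± 0.30 and Erap1 fell by 0.76 ± 0.08 on the log2 scale. Psme1 (0.64 ± 0.10), Psmb10 (0.51 ± 0.11) and Psme2 (0.48 ± 0.10) rose. Tap2, Tapbp and Psmb8 did not pass, with values from -0.32 to 0.12, although Psmb8 passed after rescaling (-0.44, limma adjusted p = 0.0588). The Y-linked sum was at most 5.89 in the day 5 control libraries, and its part was not tested.

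Across the 12 populations each of the 10 genes was highest at day 2 with IFNγ and next highest at day 5 with IFNγ, and the libraries of these populations did not overlap. The share of all genes without overlap between these populations was not computed. The lowest population was NPCs for Nlrc5, Tapbp, Psmb9, Psmb10 and Psme1 and ESCs for Tap1, Tap2, Psmb8, Psme2 and Erap1. Nlrc5 spanned a 657-fold range of means, Tap1 308-fold and Psmb9 274-fold, whereas Psme1 spanned 6.95-fold and Psme2 7.33-fold. Psmb8 went from 3 and 1 reads in ESCs to 7270.1 and 7599 normalized counts at day 2 with IFNγ. No range is given for it because ESCs were at the floor. Even with 3 reads in each ESC library, its range would exceed the 657-fold of Nlrc5, which was therefore not the widest. Of the 11 steps between neighbours in the order of means, 5 were between overlapping populations for Psme2, 4 for Nlrc5 and Psmb10, 3 for Psme1 and Erap1, 2 for Psmb8 and Psmb9 and 1 each for Tap1, Tap2 and Tapbp. In Tap2 the overlapping step was that from day 5 to X-GFP–negative cells in the treated arm, in Tap1 that from day 2 control to treated X-GFP–medium cells, and in Tapbp that between the arms of X-GFP–high cells.

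To follow the exchange of catalytic subunits, each immunoproteasome gene was divided by its constitutive counterpart in the same library, as normalized counts per kb of exon. With 2 libraries per group no exact two-sided test can give a p below 0.33, so these ratios carry no test. Psmb8/Psmb5 was 0.0754 and 0.0869 in control and 3.06 and 3.40 in treated libraries at day 2, so that Psmb8 went from the minor to the major transcript of this pair (39.8-fold, SD 4.96). Psmb10/Psmb7 also crossed 1, from 0.360 and 0.332 to 2.18 and 2.19 (6.31-fold, SD 0.363). Psmb9/Psmb6 rose by the largest factor, from 0.00491 and 0.00561 to 0.401 and 0.419 (77.9-fold, SD 7.84), but Psmb6 remained the more abundant transcript. The SDs of these folds were propagated from the SD of each arm, with the arms taken as independent, and are not a spread of observed folds. Taking the longest transcript instead of all exons as the length multiplies the ratios by 1.77 for Psmb8/Psmb5, 0.655 for Psmb9/Psmb6 and 1.08 for Psmb10/Psmb7, and leaves their fold changes as they are.

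By day 5 the means of all 3 ratios were below 1 in treated cells. Psmb8/Psmb5 was 0.664 ± 0.0662 (SD, n = 2) against 0.0486 ± 0.00561 in control cells, Psmb9/Psmb6 was 0.0775 ± 0.00327 against 0.00157, and Psmb10/Psmb7 was 0.696 ± 0.135 against 0.451 ± 0.0233. With the longest transcript as length, the factor of 1.77 puts Psmb8/Psmb5 above 1 at day 5 as well. In X-GFP–negative cells the folds over control were 5.54 for Psmb8/Psmb5, 13.8 for Psmb9/Psmb6 and 2.44 for Psmb10/Psmb7. In X-GFP–high cells they were 2.12, 2.64 and 1.02 for the same pairs, and the libraries of Psmb10/Psmb7 overlapped between the arms.

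**Figure D3:**
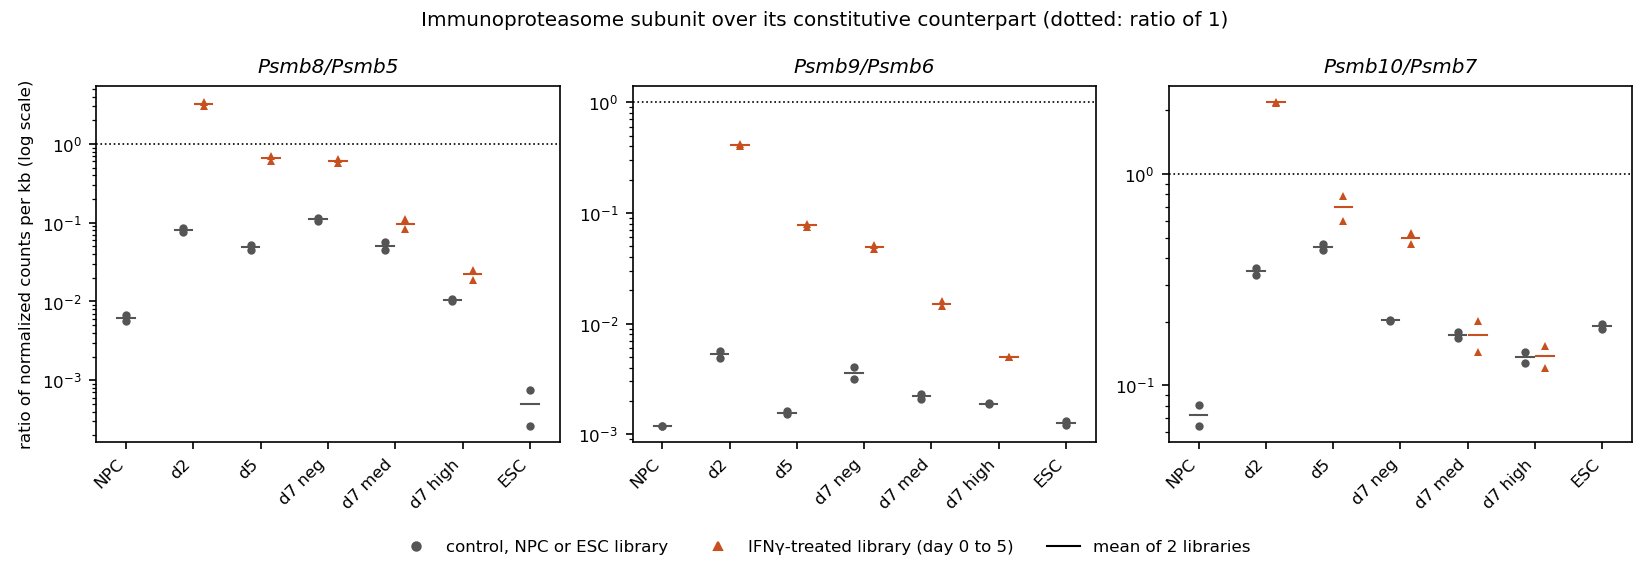
Ratio of normalized counts per kb (log scale) of each immunoproteasome gene over its constitutive counterpart in the 24 libraries, by population, with grey circles for control, NPC and ESC libraries, orange triangles for IFNγ-treated libraries, a line for the mean and a dotted line at a ratio of 1. At day 2 with IFNγ Psmb8/Psmb5 (mean 3.23) and Psmb10/Psmb7 (mean 2.18) lie above 1, and Psmb9/Psmb6 (mean 0.410) stays below it.

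None of the constitutive genes Psmb5, Psmb6 and Psmb7 passed at day 2 or day 5 (limma, 0 of 3 on both days, also 0 at an unadjusted p under 0.05, with DESeq2 and with edgeR). At day 2 Psmb5 was at 607 and 510.2 in control and at 632 and 595 in treated libraries. At day 7 Psmb6 was higher in treated than in control cells of all 3 sorted populations, by 0.23 to 0.24 on the log2 scale. Psmb5 was higher with medium (0.21 ± 0.09) and high X-GFP (0.29 ± 0.09) and did not pass in X-GFP–negative cells (0.18 ± 0.09), and Psmb7 was lower with medium X-GFP (-0.12 ± 0.06).

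The rest of the proteasome was compared in the same way. Of 11 other subunits of the 20S core, 2 rose at day 2, Psmb2 (0.37 ± 0.06) and Psma2 (0.22 ± 0.05). The median of the list was 0.12, and 5.03% of all genes tested rose. At an unadjusted p under 0.05, 5 of the 11 were higher and 0 lower, and DESeq2 and edgeR each called 2 as higher. Of 18 genes of the 19S regulator, which feeds ubiquitinated proteins into the core, none passed at day 2 or day 5 in limma. At an unadjusted p under 0.05 these were 0 at day 2 and 2 lower at day 5, DESeq2 called 0 and 1 lower, and edgeR called 0 on both days. Among 8 other caps and assembly factors, Psmg4 (0.34 ± 0.09) and Pomp (0.28 ± 0.06), the maturation factor of the proteasome, rose at day 2, against the same 5.03%. DESeq2 and edgeR called 1 gene each as higher, and edgeR called 1 as lower. At day 7 more of these genes passed, with 6 of 11 in the 20S list and 6 of 18 in the 19S list higher in X-GFP–negative cells, where 31.1% of all genes were higher.

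Among 7 chaperones and enzymes of peptide loading, Tapbpl, which encodes the tapasin-like peptide editor TAPBPR, was the only one to pass at day 2. Its mean went from 33.7 to 675 normalized counts (log2 fold change 4.28 ± 0.15, limma adjusted p = 1.98e-05). It was still higher at day 5 (1.78 ± 0.24), in X-GFP–negative (1.74 ± 0.23) and in X-GFP–medium cells (0.87 ± 0.35). The general chaperones of the endoplasmic reticulum went the other way in X-GFP–negative cells, in which 5 of the 7 genes were lower, against 30.8% of all genes tested. Hspa5 (-0.66 ± 0.08), Calr (-0.57 ± 0.06) and Uggt1 (-0.42 ± 0.06) had the largest decreases there. Among 7 other peptidases, Lap3, a leucine aminopeptidase, rose at day 2 (0.62 ± 0.05) and Thop1, which degrades peptides in the cytosol, fell by 0.28 ± 0.06 on the log2 scale. Lnpep, an endosomal aminopeptidase, was lower in treated cells of all 3 day 7 populations, with log2 fold changes of -0.84, -0.63 and -0.37 in order of rising X-GFP.

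The class I molecules that the pathway serves were measured too. All 7 class I chain genes were higher in treated cells at day 2, day 5 and in X-GFP–negative cells, with a median of 4.34 at day 2. Of all genes tested, 5.03%, 1.65% and 31.1% were higher in these comparisons. H2-Q7, 1 of the 7, had a mean of 7.29 in day 5 control cells, below the filter on low values. It entered the test of day 5 only through its treated libraries, so its call there cannot be set against the 1.65%. With medium X-GFP, 4 of the 7 were higher and 1 lower, against 33.3% and 29.6% of all genes tested. With high X-GFP, 4 were higher and 1 lower, against 18.1% and 20.4%. The lower gene was B2m, the light chain shared by class I molecules, with medium (-0.90 ± 0.12) and with high X-GFP (-1.04 ± 0.15). H2-D1 (0.43 ± 0.10) and H2-K1 (0.40 ± 0.07) were among those higher at the latter stage.

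Of 13 genes of IFNγ signaling and transcriptional control, 7 rose at day 2, against 5.03% of all genes tested. Irf1 went from a mean of 375 to 7716 normalized counts (log2 fold change 4.37 ± 0.12), Irf8, a related factor of immune cells, had a log2 fold change of 6.71 ± 0.12, and Ciita, the activator of class II genes, went from 1 and 0 reads in control cells to a mean of 492 normalized counts. Ciita thus entered the test only through its treated libraries. In X-GFP–high cells 3 of the 13 genes were higher in limma, a share near the 18.1% of all genes tested, and DESeq2 called 1. Among the 3 in limma were Irf1 (0.32 ± 0.09) and Ciita (0.91 ± 0.27). Lower were 5 of the 13 genes, against 20.4% of all genes tested, among them Irf2 (-1.93 ± 0.27), the receptor chain Ifngr1 (-0.94 ± 0.14) and the kinase Jak2 (-0.65 ± 0.12).

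**Figure D4:**
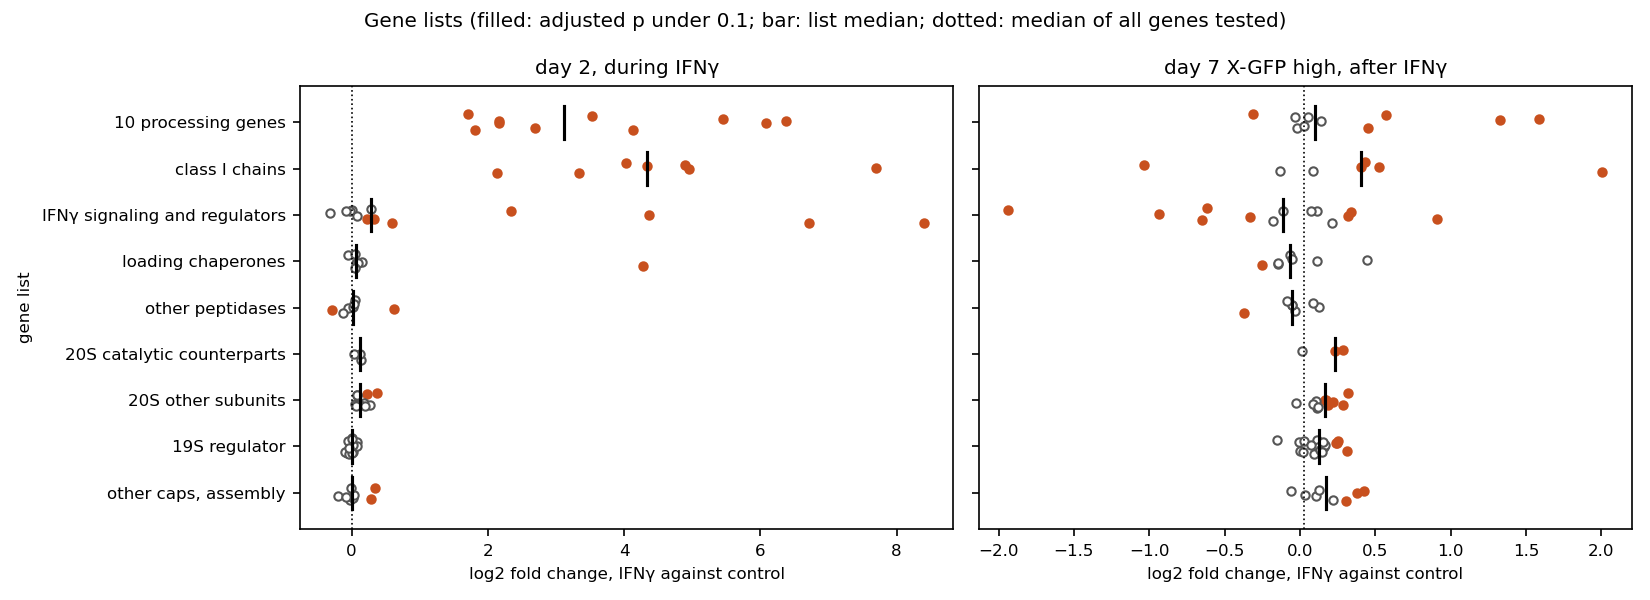
Log2 fold change of IFNγ-treated against control cells (x axis) for each tested gene of 9 lists (y axis), at day 2 and in X-GFP–high cells, with filled circles for an adjusted p under 0.1, a bar for the list median and a dotted line for the median of all genes tested. At day 2 the 10 processing genes (median 3.11) and the class I chains (median 4.34) stand to the right, and the 20S and 19S lists lie near 0. The value of Ciita at day 2 rests on 1 control read and depends on the pseudocount.

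The surroundings of the chromosome 17 block were examined for genes within 200 kb of the start of Psmb9. Of 31 annotated genes 17 were tested at day 2, and 12 of these rose, the 4 of the block and 8 others, against 5.03% of all genes tested. The 8 were H2-K1 and the class II region genes H2-DMa, H2-DMb2, H2-DMb1, H2-Ab1, H2-Aa, H2-Eb1 and H2-Eb2, of which H2-Eb2, H2-DMb1 and H2-DMb2 had at most 3 reads in each control library. H2-Eb2, H2-DMb2, H2-Aa, H2-DMb1 and H2-Eb1 had control means of 0.496, 0.993, 1.99, 2.52 and 8.06, below the filter of 10. They entered the test only through their treated libraries, so the 12 of 17 cannot be set against the 5.03%. The 5 tested genes that did not pass had log2 fold changes from -0.31 to 0.28. At day 5 the block, H2-K1 and H2-Eb1 were higher, 6 of 16 genes, against 1.65% of all genes tested. With high X-GFP, 7 of 18 passed as higher, the block with H2-K1, H2-Aa and H2-Eb1. The 3 of 14 outside the block are a share near the 18.1% of all genes tested. H2-Aa had a control mean of 6.83 there and entered the test only through its treated libraries. Col11a2, which encodes a collagen chain, was lower there (-0.98 ± 0.33).

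**Figure D5:**
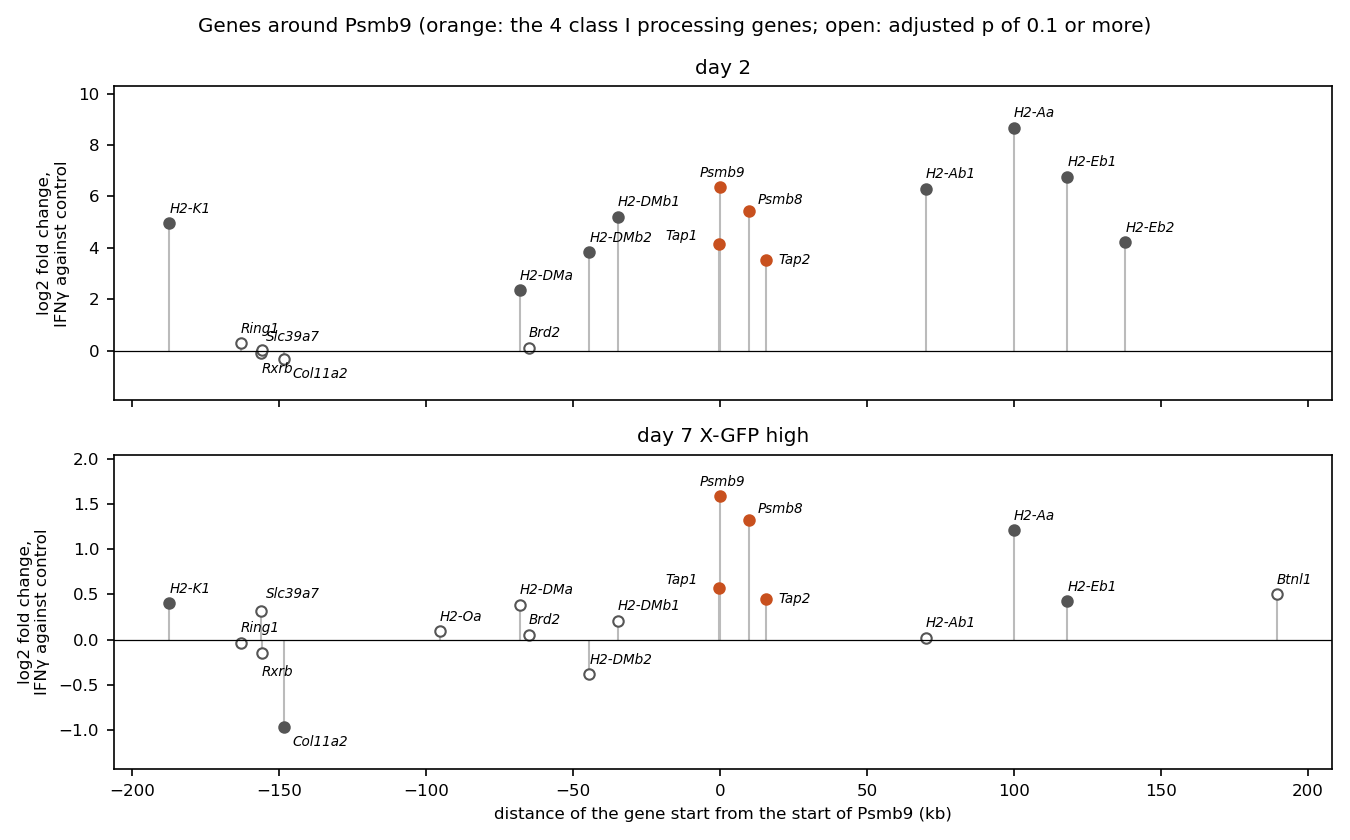
Log2 fold change of IFNγ-treated against control cells (y axis) for genes within 200 kb of Psmb9, by distance of their starts in kb (x axis), at day 2 and in X-GFP–high cells, with orange circles for Tap1, Psmb9, Psmb8 and Tap2 and open circles for an adjusted p of 0.1 or more. The block lies between 3.53 and 6.37 at day 2 and between 0.45 and 1.59 in X-GFP–high cells. Values of genes with at most 3 control reads per library depend on the pseudocount.

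Over the means of the 12 populations, the genes outside the set with the profiles most like its mean profile were H2-D1 (Pearson r = 0.980), Gm8995 (0.978), Psme2b (0.968), Igtp (0.961), H2-T22 (0.960), Gm12216 (0.951), H2-T10 (0.949) and H2-K1 (0.946). These correlations describe 12 points that share libraries and treatment. Gm8995 had at most 3 reads in each day 2 control library.

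Some counts have a limit that follows from the genome. Of the stretches of 50 bases in the Psme2 transcript, 59.3% also occur in other genes, mainly in Psme2b on chromosome 11, so that reads of the pair may be exchanged or lost. Psme2b was itself at 113 and 97.3 in control and at 499 and 499.7 in treated libraries at day 2. Tap1 and Psmb9 share 212 exon bases on opposite strands, and Erap1 shares 834 with Cast, which had a mean of 2365 normalized counts over all libraries. Tapbp shares 149 bases with Zbtb22 on the same strand (mean 824). The libraries were stranded, but the strand setting of the counting is not given in the sources used here, so reads in these stretches cannot be assigned with certainty.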

How the data were processed

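RNA was measured by stranded, paired-end sequencing after depletion of ribosomal RNA of 24 libraries, 2 per population. Reads had been aligned with STAR to mm10 with strain-variant positions masked and counted with HTSeq 0.6.1 per the labels and the study's methods. The annotation release is not given in the sources used here. The authors then divided the counts by DESeq2 size factors, and the deposited signal values are these normalized counts per gene for all 24 libraries. Whole read counts were recovered from the steps between low values, and 100% of values came out whole within 0.01 of a read. The deposited allelic fractions of X-linked genes were not used. Gene coordinates and exon lengths came from GENCODE, in which 95.0% of the identifiers were found.

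Samples were grouped by their labels. Values were tested as log2(normalized count + 1) with limma 3.58.1 in R 4.3.3 (trended variance, two-sided), with the 4 libraries of a pair of groups or the 8 of an interaction, whose 2 effects share no library. Genes with a mean above 10 entered, and p-values were adjusted over all of them by Benjamini-Hochberg, with a threshold of 0.1. A fold change on this scale understates the change of low genes. Errors are SEs of limma unless an SD is named. Alternatives tried were no filter on low means, a pseudocount of 0.1, equal library totals, a single fit of the 24 libraries, a block for the replicate number, DESeq2 1.42.0 and edgeR 4.0.16 (quasi-likelihood) on the recovered reads, and leaving out each library. The fits were tested on simulated data. The floor was set at 3 reads per library, and a gene that exceeded it in neither library of a population was taken as not measurable there, which covers counting error only.

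All 10 genes were named, with their constitutive partners, up to 3 genes with the largest change past the threshold in each direction of each list, the 8 genes with the most similar profiles and the genes past the threshold near Psmb9. Genes sharing exon bases or sequence with the 10 were added. The members and lists were chosen with earlier results of these data known.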

Additional observations from a re-analysis of the deposited data

Results flagged for a closer look

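Tests of the difference between 2 effects of IFNγ, made on 8 libraries each (limma, adjusted p under 0.1), picked out 26 values of the 10 genes. Between day 5 and day 2, the log2 effect was smaller at day 5 for Psmb10 (-2.06), Psmb8 (-1.62), Psme1 (-1.06), Psme2 (-0.96), Tapbp (-0.68) and Erap1 (-0.62). Between X-GFP–negative cells and day 5, it was smaller in the former for Nlrc5 (-3.30), Tap1 (-1.87), Psmb9 (-1.51), Psmb8 (-1.19), Tap2 (-1.11), Tapbp (-0.68) and Erap1 (-0.29) and larger for Psmb10 (0.58).

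Between medium and negative X-GFP it was smaller in the medium cells for Psmb8 (-1.52), Nlrc5 (-1.39), Psmb10 (-1.37), Erap1 (-1.18), Psmb9 (-1.04), Tap2 (-0.96), Tap1 (-0.83), Psme2 (-0.66), Psme1 (-0.66) and Tapbp (-0.65). Between high and medium X-GFP it was smaller in the high cells for Psmb9 (-1.35) and Tap1 (-0.81). Psmb10 is the gene whose effect fell from day 2 to day 5 and was larger again in X-GFP–negative cells, the latter with a call that was lost without any 1 of 3 libraries.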

How the results depend on the processing

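Of 1798 alternative values of the 10 genes, 1694 kept their direction and their side of the threshold, 58 lost and 21 gained a call, and 25 turned direction; none of those that turned had passed the threshold. The genes called lower in X-GFP–high cells became 0 with no filter, with all 24 libraries in 1 fit and with DESeq2, since Erap1 then missed the threshold. Direction turned after rescaling for Tapbp from day 2 to day 5 of the control arm (-0.00416), for Tap2 between treated X-GFP–negative and day 5 cells (0.0603, and 0.00662 with DESeq2 and 0.00185 with edgeR), and for the difference of effects between negative and day 5 cells of Psme1 (0.00890) and Psme2 (0.125, and 0.00844 with DESeq2). With a pseudocount of 1 in the ratio, the fold of Psmb9/Psmb6 was 46.5 at day 5 and 2.56 in X-GFP–high cells, and with Spearman's rho 2 of the 8 most similar genes were shared. The cause was not tested.

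Leaving out 1 library at a time gave 0 to 3 genes lower in X-GFP–medium cells, 0 to 1 lower in X-GFP–high cells, 0 to 1 with a larger effect in negative than in day 5 cells, and 1 to 4 with a smaller effect in high than in medium cells. The values that turned direction ranged from -0.39 to 0.092 for Psmb10 with medium X-GFP, and for high X-GFP from -0.18 to 0.14 for Nlrc5, -0.10 to 0.027 for Tapbp and -0.15 to 0.20 for Psmb10. They ranged from -0.046 to 0.16 for Psme2 between day 2 control cells and NPCs, -0.15 to 0.13 for Tap2 between treated negative and day 5 cells, -0.16 to 0.045 for Tap1 between day 5 and day 2 effects and -0.11 to 0.064 for Psme2 between negative and day 5 effects. Between high and medium effects they ranged from -0.092 to 0.23 for Erap1, -0.053 to 0.47 for Psmb8 and -0.063 to 0.42 for Psmb10. The fold of Psmb10/Psmb7 ranged from 0.831 to 1.16 in medium and from 0.896 to 1.14 in high cells.

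Replicate numbers are shared by all groups, but nothing says that they mark a batch. With only 2 pairs per comparison, the deviations of same-numbered libraries correlated by 0.406 at day 2, 0.363 at day 5, 0.187, 0.107 and 0.0239 in negative, medium and high cells. With the replicate number as a block, the genes called were 10 at day 2, 10 at day 5 (with Psmb10), 10 in negative cells, 6 higher and 2 lower in medium cells, 4 higher and 1 lower in high cells, 8 lower in treated negative than in treated day 5 cells (Psmb8 added), 7 with a smaller effect at day 5 than at day 2 (Tap2 added) and 4 with a smaller effect in high than in medium cells (Psme1 and Psme2 added). DESeq2 gave no count for this last test because Psmb9 had no adjusted p. With 2 libraries per group the spread rests on few values, and low counts such as those of Psmb8, Psmb9 and Tap2 in ESCs carry more counting error.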
